A study of Mus musculus with 8 samples.

Results

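Smad6, Smad7, Smurf1, Smurf2 and Bambi encode inhibitors of BMP and TGFβ signal transduction. All SMAD4 ChIP-seq peaks centered within 100 kb of the 5′ end of these 5 genes were collected, out of 22350 annotated protein-coding genes. They amounted to 9 of the 2073 peaks in mouse limb buds at E9.5 and to 9 of the 6185 peaks at E10.5. The NMRI embryos were homozygous for the Smad4Flag allele, in which a 3xFLAG epitope is added to the endogenous SMAD4 protein, and chromatin was precipitated with the M2 antibody against this tag. All groups shared this allele, input DNA without antibody served as control, and untagged embryos were not analyzed here. Each stage had 2 SMAD4 ChIP and 2 input samples, with about 80 pooled embryos per replicate at E9.5 (dated E9.75 in the protocol) and about 100 at E10.5. The early tissue was forelimb buds with the attached trunk and the late tissue fore- and hindlimb buds (another label names forelimb buds throughout), so that stage and tissue cannot be told apart. The authors had combined the replicates into 1 peak list per stage. The values therefore have no replicate error, the sequencing depth is unknown, no test between the stages was possible, and the absence of a peak does not establish that SMAD4 was absent.

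BMP receptors phosphorylate receptor SMADs, which enter the nucleus together with SMAD4 and bind DNA. Inhibitory SMADs interrupt this relay, and their genes are well known as targets of the pathway they inhibit. SMAD7 occupies activated receptors of both the BMP and TGFβ branches, whereas SMAD6 acts mainly on the BMP branch. SMURF1 and SMURF2 are HECT-type E3 ubiquitin ligases that mark SMADs and, when recruited by inhibitory SMADs, receptors for degradation. BAMBI is a transmembrane pseudoreceptor that resembles a type I receptor but lacks the kinase domain. In limb buds, such negative feedback acts alongside secreted antagonists such as GREM1.

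At E9.5, a SMAD4 peak covered the annotated 5′ end of each of the 5 genes, compared with 2.11% of all protein-coding genes. At E10.5 this was the case for 4 of the 5 genes, with Smurf1 as the exception, compared with 11.3% of all protein-coding genes. Counted by peaks, 5 of the 9 early and 4 of the 9 late peaks covered a member's 5′ end, whereas 20.5% of the early and 36.3% of the late list covered the 5′ end of any protein-coding gene. The 4 genes with a 5′ peak at both stages were Smad6, Smad7, Smurf2 and Bambi. Of all protein-coding genes, 1.1% had a peak over the 5′ end at both stages, and among those with such a peak at E9.5, 52.2% also had one at E10.5. Within 100 kb, all 5 genes had at least 1 peak at either stage, whereas this applied to 20.5% of protein-coding genes at E9.5 and 52.9% at E10.5. Between the genes, the best-scored peak ranged from rank 5 (Smad7) to rank 1158.5 (Bambi) at E9.5, and from rank 3 (Smad7) to rank 3892 (Smurf1) at E10.5. Rank 1 is the best score of a list, equal scores share their mean rank, and the score is the value that the authors assigned to a peak.

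**Figure D1:**
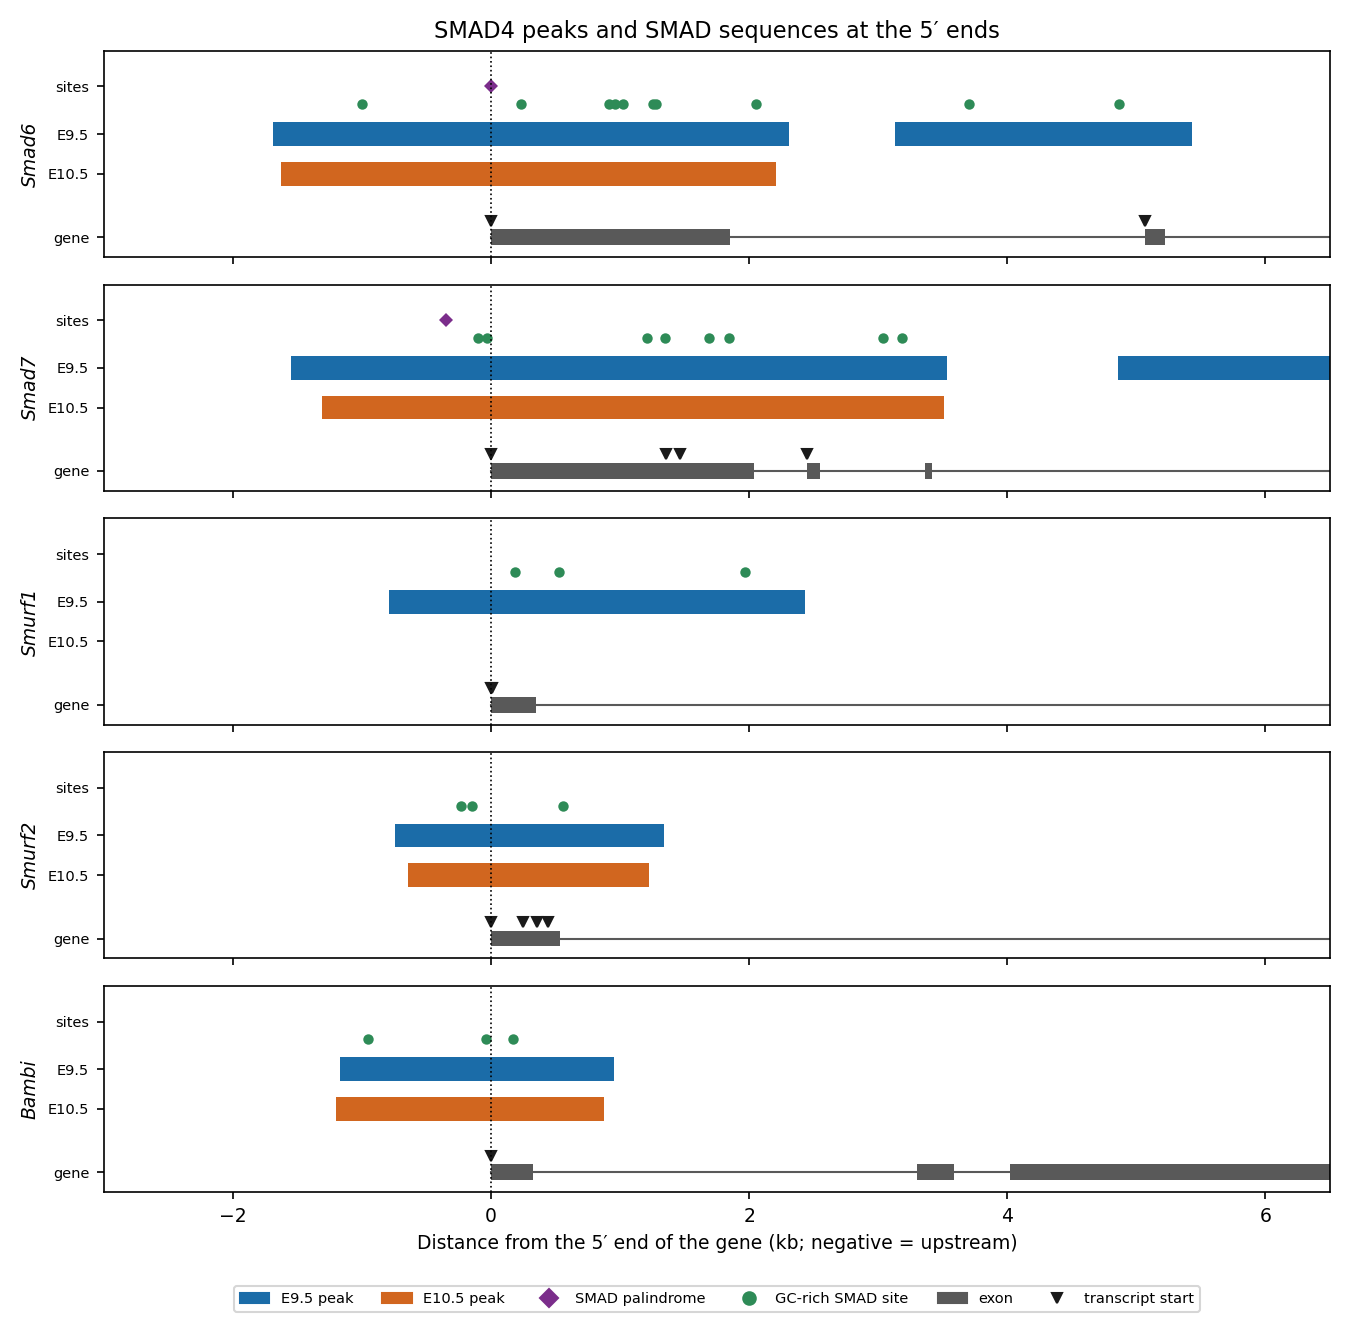
Extent of the SMAD4 peaks at E9.5 (blue) and E10.5 (orange) around the annotated 5′ end of each gene, with the distance from the 5′ end in kb on the horizontal axis, exons as grey boxes and transcript starts as triangles. Sites found inside the peaks are the SMAD palindrome (diamond) and the GC-rich SMAD site (circles). The 5′ end lies inside a peak in all panels except at E10.5 for Smurf1.

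The inhibitory SMAD gene Smad7 (chr18:75527183-75555589, plus strand, mm9) had the best-ranked peaks. The E9.5 peak chr18:75525632-75530716 had a score of 1307 and rank 5, and the E10.5 peak chr18:75525871-75530697 had a score of 694 and rank 3. These ranks correspond to the best 0.241% and 0.0485% of the lists. With negative positions upstream of the 5′ end, the early peak reached from -1.55 to 3.53 kb and the late one from -1.31 to 3.51 kb. The downstream edges of the 2 peaks lay only 19 bp apart, the upstream edges 239 bp. In each case, the peak contained 4 of the 5 annotated transcript starts of Smad7, at 0, 1.35, 1.46 and 2.45 kb, and its center lay in the annotated UTR of the gene. The remaining start at 7.38 kb was covered by another peak at E9.5, chr18:75532039-75537905, which was wide (5867 bp) but low in score (39, rank 1928). It was directly followed by an E9.5 peak centered in the next intron, chr18:75537934-75540755 (score 56.2, rank 1039). No E10.5 peak overlapped either of these intronic peaks.

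Instead, Smad7 had 3 other peaks at E10.5, and none of them overlapped an E9.5 peak. The best of these, chr18:75550215-75556870 (score 114, rank 308), was centered in a coding exon 26.4 kb downstream of the 5′ end and reached beyond the 3′ end of the gene. The other two lay outside Smad7, at chr18:75487237-75493072 (-37 kb, score 43.5, rank 5636) and at chr18:75591316-75595620 (66.3 kb, score 50.2, rank 5321). The latter was centered in the UTR of the neighboring gene Ctif, whose 5′ end lies farther away than that of Smad7. In total Smad7 had 3 peaks at E9.5 and 4 at E10.5, counts reached or exceeded by 0.461% and 5.42% of protein-coding genes, respectively. Hence the 5′ end was the one position at this locus with a peak at both stages. The 2 accompanying early peaks lay in the first 13.6 kb of the gene and the 3 late ones at greater distances on either side. The lack of a counterpart is common and not particular to Smad7, since 18.7% of the early and 6.26% of the late list were shared between the stages.

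Smad6 (chr9:63800953-63869866, minus strand), which encodes the inhibitory SMAD of the BMP branch, had the second-best pair of 5′ peaks. At E9.5, the peak chr9:63867558-63871556 had a score of 734 and rank 10, and at E10.5 the peak chr9:63867660-63871495 had a score of 235 and rank 21. The E10.5 peak lay entirely inside the E9.5 peak, with centers 20 bp apart. Both spanned the whole first exon, with the center in the UTR 0.309 kb (E9.5) and 0.289 kb (E10.5) downstream of the 5′ end. Relative to the length of the lists, the peaks belonged to the best 0.482% at E9.5 and 0.34% at E10.5.

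Further peaks at Smad6 were found at a single stage each, as were most peaks of both lists (18.7% of all E9.5 and 6.26% of all E10.5 peaks were shared). The E9.5 peak chr9:63864432-63866735 (score 98, rank 218) was centered 4.28 kb inside the gene. It contained the second annotated start of Smad6, at 5.07 kb, and its center was at -0.789 kb from that start. Its distance to the nearest E10.5 peak, the 5′ peak of that stage, was 0.924 kb, and it was the one additional peak that counted as shared when edges up to 1 kb apart were accepted. The E9.5 peak chr9:63892010-63893561 (score 52.7, rank 1351.5) was intergenic, at -22.9 kb from the 5′ end of Smad6. At E10.5 the second peak, chr9:63801083-63804491 (score 71.2, rank 1711.5), was intronic and centered 67.1 kb downstream of the 5′ end, close to the 3′ end of the gene. Beyond the distance limit, Smad6 had the nearest excluded peaks of all 5 genes, 110 kb downstream at E9.5 (score 51.4) and 103 kb downstream at E10.5 (score 52.7).

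The sequences under these 5′ peaks were searched on both strands for short SMAD sequences, namely CAGAC (the SMAD box), CAGACC (SMAD core), the palindrome GTCTAGAC, and the GC-rich GGCGCC and its longer form TGGCGCC. The shorter GC-rich sequence GGCGC was searched as well, and so was GGCCG. The sequence TGACTGAC, which is neither a SMAD box nor a GC-rich site, was included too. A last sequence, called the spaced pair here, consists of GNC in tandem, 5 bases of any kind and GTCT, which are the first 4 bases of the palindrome. The SMAD core contains the SMAD box, and each longer GC-rich form contains the shorter ones, so that their matches overlap. GTCTAGAC holds CAGAC on neither strand. Of the peaks of the 5 genes, those at the 5′ ends of Smad6 and Smad7 were the ones with the palindrome. In Smad6 it lay directly on the annotated transcript start, 4 bases to either side of the boundary before the first transcribed base, and its first 4 bases formed the end of a match to the spaced pair. This site is shown because both sequences coincide with the start of the gene and lie inside the peaks of both stages. It is written on the strand of the gene, from position -15 to 3 in capitals, where position 0 is the 5′ end:

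Smad6, chr9:63869858-63869886 (mm9, minus strand): gcggaGCCGCCAAAGTGTCTAGACtggca

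In Smad7 the palindrome was centered at -349 bp from the 5′ end. A match to GTCTAGAC is infrequent, since it was present in 0.213% of 32851 RefSeq promoters of 300 bases (250 bases before to 50 after a start, build GRCm38.p6). The spaced pair was present in 0.667% of them. When windows as long as the Smad6 peak (3999 bp) were laid on all E9.5 peaks, 6.8% contained the palindrome and 3.52% the spaced pair, and for the E10.5 peak (3836 bp) these shares were 4.27% and 5.09%. For the 5085 and 4827 bp of the Smad7 peaks, 7.67% and 5.04% of the windows contained the palindrome. These matches are descriptions of the sequence and do not show where SMAD4 contacts DNA.

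Smurf2 (chr11:106681380-106782029, minus strand), which encodes a ubiquitin ligase that acts on SMADs and receptors, had a peak over the same 5′ region at both stages but with very different ranks. The E9.5 peak chr11:106780691-106782773 had a score of 150 and rank 97, within the best 4.68% of the list. The E10.5 peak chr11:106780808-106782669 had a score of 60 and rank 3068.5, or 49.6% of the way down the list, which is close to the median score of all E10.5 peaks (59.8). In contrast to this difference in rank, the position was nearly identical, as the centers lay 6 bp apart at 0.297 and 0.291 kb downstream of the 5′ end, in the annotated UTR. The E10.5 peak lay inside the E9.5 peak and covered 89.4% of it. Both peaks included 4 of the 6 annotated transcript starts, at 0, 0.245, 0.356 and 0.44 kb. No other peak was found within 100 kb at either stage.

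Smurf1 (chr5:145637364-145726716, minus strand), the second SMURF gene, had a peak over its 5′ end at E9.5 only. This peak, chr5:145724286-145727507, had a score of 113 and rank 161 (best 7.77%) and was centered in the first intron, 0.82 kb downstream of the 5′ end. The nearest E10.5 peak lay 80.6 kb away. It was chr5:145637539-145643729 (score 55.5, rank 3892), centered 86.1 kb downstream of the 5′ end in an intron at the 3′ end of the gene, and it overlapped 8 exon records of the annotated Smurf1 transcripts. An annotated transcript start at 79.4 kb was located 6.71 kb upstream of its center.

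The 5′ peaks of both SMURF genes contained GC-rich SMAD sites. Examples picked by hand are shown with 1 from Smad6, to let the flanks of the same site be read next to each other. Capitals mark GGCGCC, and all are written on the strand of the gene:

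Smurf1, chr5:145726512-145726541 (mm9, minus strand): ggctcggaccccGGCGCCcagcccgtggcc

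Smurf2, chr11:106782159-106782188 (mm9, minus strand): aggccttcctctGGCGCCccaggcgcagga

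Smurf2, chr11:106781456-106781485 (mm9, minus strand): gcgggcggctgtGGCGCCtgtgggcaagca

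Smad6, chr9:63869618-63869647 (mm9, minus strand): ctcggcagccgcGGCGCCcgaagcgaccca

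All 3 matches of the Smurf1 peak were centered downstream of the 5′ end, at 189, 529 and 1971 bp, and the first of these is shown. In Smurf2 they were centered at -232, -145 and 558 bp. The last 2 of these are shown, which are preceded by T and thus match TGGCGCC, whereas the match at -232 bp does not. The Smad6 example is centered at 233 bp and is the nearest of its 8 matches to the peak center at both stages. The Smurf1 site lies in the region that had a peak at E9.5 only, whereas those of Smurf2 and Smad6 were covered at both stages.

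Bambi (chr18:3507955-3516402, plus strand), which encodes the pseudoreceptor, showed the opposite difference in rank to Smurf2. The E9.5 peak chr18:3506782-3508909 had a score of 54.6 and rank 1158.5, which is 55.9% of the way down the list and just below the median score of the E9.5 peaks (56.3). The E10.5 peak chr18:3506752-3508831 had a score of 122 and rank 233, within the best 3.77%. The centers were 54 bp apart, at -0.11 and -0.164 kb from the 5′ end, and the overlap of 2050 bp made up 96.3% of the early and 98.6% of the late peak. The same stretch of DNA thus held a peak near the middle of the early list and near the top of the late one. No other peak lay within 100 kb at either stage, and the nearest one beyond this distance was 630 kb (E9.5) and 401 kb (E10.5) downstream.

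**Figure D2:**
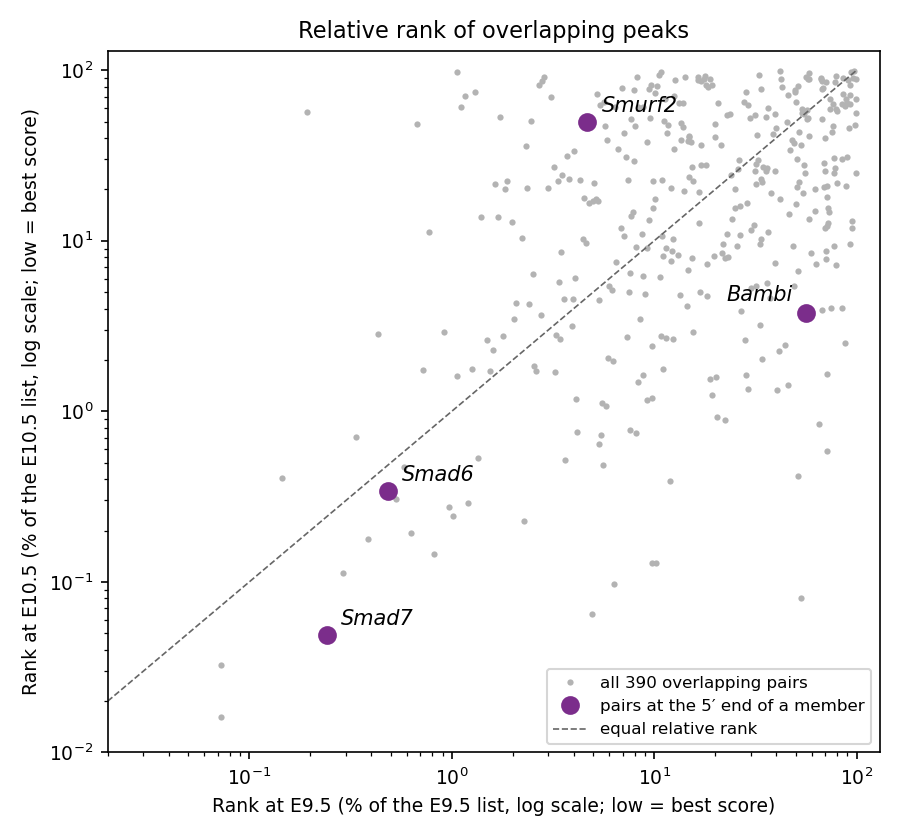
Rank of the score as a percentage of the list at E9.5 (horizontal, log scale) and E10.5 (vertical, log scale) for the 390 overlapping pairs of peaks (grey) and the 4 pairs at the 5′ ends of Smad6, Smad7, Smurf2 and Bambi (purple), where low values are the best scores. Smad7 (0.241% and 0.0485%) and Smad6 (0.482% and 0.34%) lie at the lower left, Smurf2 (4.68% and 49.6%) above and Bambi (55.9% and 3.77%) below the line of equal relative rank.

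To place these differences, the relative rank at E10.5 was compared with that at E9.5 for all 390 overlapping pairs of peaks. The median difference over all pairs was -0.524 percentage points (quartiles -15.5 and 19.4), where negative values mean a better relative rank at E10.5. The pairs at Smad6 and Smad7 differed by -0.143 and -0.193 points, which are small numbers because all of these peaks stood at the very top of their lists. The Smurf2 pair differed by 44.9 points, and 46 of the 390 pairs had a larger value. The Bambi pair differed by -52.1 points, and 28 pairs had a lower value. As ranks depend on the length of each list and the replicates were already combined, neither shift could be set against replicate error. The positions, on the other hand, moved little, since the centers of the 4 pairs were displaced by 6 to 110 bp, while the median over all pairs was 111 bp (quartiles 48.2 and 256 bp).

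Across the 5 genes, overlap between the stages was found at the 5′ ends and nowhere else within 100 kb. At each stage, 4 of the 9 peaks were shared, compared with 18.7% of the early and 6.26% of the late list. The 4 early and 5 late peaks away from the 5′ ends were not shared, which differs little from these low shares. The other 5 E9.5 peaks comprised the 5′ peak of Smurf1 and the additional peaks of Smad6 and Smad7. The other 5 E10.5 peaks were the single peak of Smurf1, 1 peak of Smad6 and 3 of Smad7, all centered at least 26.4 kb from the 5′ end. By a minimal overlap of 50% of both peaks, or with centers within 250 bp, the same number of 4 peaks was shared. Every peak of both stages had the 5′ end of the respective gene as the nearest among protein-coding genes. When genes of all biotypes were included, this applied to 8 of the 9 peaks at each stage. Few other protein-coding genes start in these intervals, with none within 100 kb of Smad7 and Bambi, 1 each for Smad6 (Lctl, 95.1 kb) and Smurf2 (Kpna2, 78.8 kb), and 2 for Smurf1 (nearest Gm4871, 66.9 kb).

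**Figure D3:**
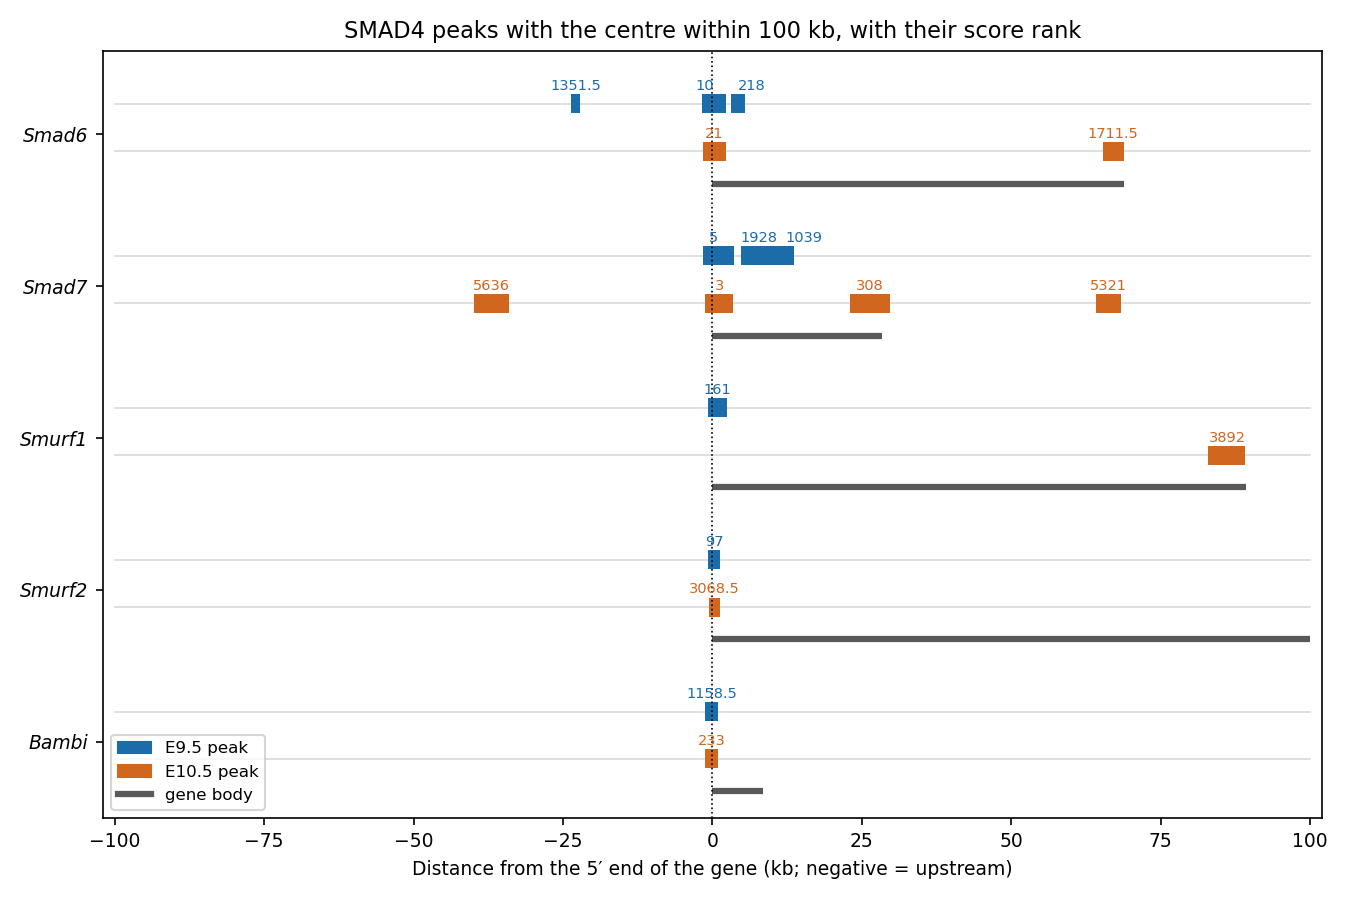
Position of all SMAD4 peaks centered within 100 kb of the 5′ end of each gene at E9.5 (blue) and E10.5 (orange), drawn to width, with the distance from the 5′ end in kb on the horizontal axis, the rank of the score above each peak and the gene body as a grey line (cut at 100 kb for Smurf2). Peaks of both stages coincide at the 5′ ends of Smad6, Smad7, Smurf2 and Bambi, and at no other place.

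The lists differ in length, and the number of peaks per gene was therefore read against all protein-coding genes. With a single peak at each stage, Smurf1, Smurf2 and Bambi fell into the class of 17.3% of genes at E9.5 and 26.1% at E10.5. Smad6 had 3 early and 2 late peaks, and Smad7 had 3 and 4. The total of 9 peaks was thus the same at both stages, although the E10.5 list is longer. When the E10.5 list was reduced to its best 2073 peaks, 5 peaks at 3 of the genes remained, namely those of Smad6, Smad7 and Bambi, while 28% of protein-coding genes retained a peak.

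**Figure D4:**
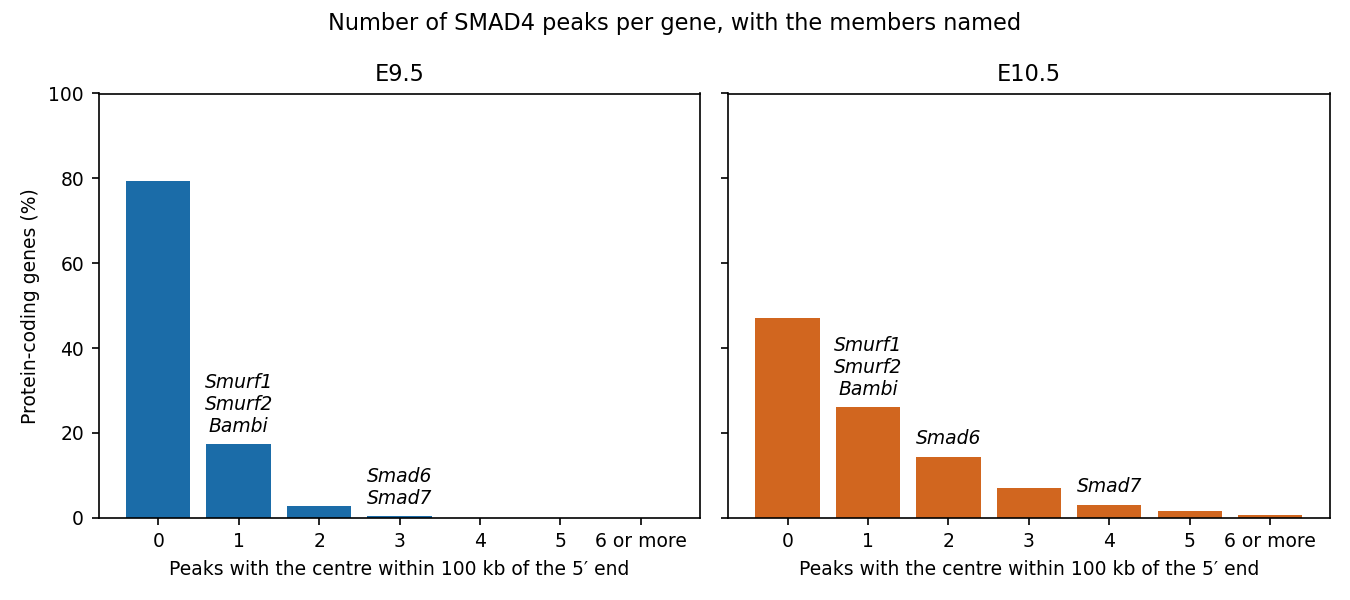
Percentage of protein-coding genes (vertical) with 0, 1, 2 and more SMAD4 peaks centered within 100 kb of the 5′ end (horizontal) at E9.5 and E10.5, with the names of the 5 genes above the class they belong to. Smad6 and Smad7 have 3 peaks each at E9.5, a count reached or exceeded by 0.461% of genes, while Smurf1, Smurf2 and Bambi have 1 peak at either stage.

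The 9 E9.5 peaks had a median width of 2822 bp (1552 to 5867 bp) compared with 1244 bp for the entire list, and the 9 E10.5 peaks 4305 bp (1862 to 6656 bp) compared with 2552 bp. The 5′ peak of Smad6 was wider than 97.2% of the early and 71.4% of the late list, and that of Smad7 wider than 98.7% and 81.5%. The 5′ peak of Smurf2 (2083 and 1862 bp) was wider than 81% of the early and 30.1% of the late list, and that of Bambi (2128 and 2080 bp) wider than 82.2% and 37%. The early 5′ peak of Smurf1 was wider than 94.4% of the list.

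Next, the base composition was determined in the 300 bp around each peak center. The 5′ peaks of Smurf2 and Bambi were centered in GC-rich DNA, with 81.3% and 70.3% GC at E9.5 (median of all E9.5 peaks 53%) and 80.7% and 69.7% at E10.5 (median 55%). The windows of Smad6 had 59.7% and 62.7% GC, and those of Smad7 55.7% and 71.3%, since the center of the latter was displaced by 110 bp. The ratio of observed to expected CpG dinucleotides was between 0.775 and 0.988 in the windows of these 4 genes, compared with medians of 0.277 and 0.329 for the lists. It was 0.245 in the Smurf1 window, which is centered in the intron. Away from the 5′ ends, the ratio was between 0 and 0.28, except for the E10.5 peak at the 3′ end of Smad7 with 0.555.

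The GC-rich site GGCGCC was present in every 5′ peak, whereas among the others it was found in 1 of 4 early peaks (Smad6 at 4.28 kb, 2 matches) and in 2 of 5 late peaks (Smad6 at 67.1 kb, 1 match, and Smurf1 at 86.1 kb, 3 matches). Windows as long as the 5′ peaks held it at between 26.6% and 33.8% of all E9.5 peaks and between 35.5% and 46% of all E10.5 peaks. For the other peaks, these shares were between 24.7% and 35.5% at E9.5 and between 42% and 50.1% at E10.5. Per 5′ peak, there were 8 matches at Smad6, 8 at Smad7 and 3 each at Smurf1, Smurf2 and Bambi. This corresponds to 2 matches per kb in the E9.5 peak of Smad6, 1.57 in Smad7, 1.44 in Smurf2, 1.41 in Bambi and 0.931 in Smurf1, while the median peak of the E9.5 list had 0. The density was above that of between 84.7% and 95.7% of the E9.5 peaks and, for the 4 genes with a 5′ peak at E10.5, of between 93.6% and 97.7% of the E10.5 peaks. As these regions are also rich in GC and CpG, the part of base composition in the number of matches was not tested.

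The SMAD box CAGAC was present in every peak of the 5 genes when the entire peak was searched, as it was in at least 97.7% of equally long windows at all peaks. The E9.5 peak of Bambi had 5.64 matches per kb, more than 90.2% of the list, and its E10.5 peak 5.29, more than 96.5%. By contrast, the 5′ peaks of Smad6 and Smad7 had 2 and 1.57 matches per kb at E9.5, below the list median of 2.87, and 2.09 and 1.66 at E10.5, below the median of 2.74. The SMURF genes lay between, with 3.72 in the E9.5 peak of Smurf1 and 2.88 (E9.5) and 3.22 (E10.5) in the 5′ peaks of Smurf2. In the 300 bp around the center, CAGAC was found in 4 of the 9 peaks at either stage, compared with 60.6% of the early and 53.2% of the late list. The core CAGACC was present in this window in 0 of 9 early and 1 of 9 late peaks, compared with 20.9% and 19.7% of the lists. For the other sequences, the central window held GGCGCC in 2 early and 3 late peaks (12.6% and 13.1% of the lists), GGCGC in 3 and 4 (30% and 35.7%) and GGCCG in 3 and 4 (34.3% and 38.2%). TGGCGCC (4.82% and 3.95% of the lists) and TGACTGAC (1.11% and 1.41%) had 0 matches there at either stage, which differs little from these low shares. In whole peaks, TGACTGAC was found in 1 early peak, the one of Smad6 at 4.28 kb, and in 3 late peaks away from the 5′ ends. Windows of the same length held it at 9.36% of all early peaks and, for the 3 late ones, at 21%, 22.1% and 23.4% of all late peaks. The palindromes at Smad6 and Smad7 also lay outside the central windows, which held this sequence at 1.21% of all early and 0.42% of all late peaks. Since the lists give no summits, the centers need not coincide with the highest signal.

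For 3 of the 5 genes, Smad6, Smurf1 and Smurf2, a RefSeq promoter of 300 bases was at hand, and each matched mm9 exactly once. The 3 promoters lay entirely inside the E9.5 peaks, and those of Smad6 and Smurf2 also inside the E10.5 peaks. Their GC content was 66.3% for Smad6, 76.3% for Smurf1 and 80.3% for Smurf2, and SMAD sequences are given for Smad6 and Smurf2. The Smad6 promoter held the palindrome and the spaced pair but neither CAGAC nor GGCGCC. The Smurf2 promoter held CAGAC at 2 positions and GGCGCC at 2 positions, 1 of which was TGGCGCC. Among all RefSeq promoters, 49.6% held CAGAC, 11.9% GGCGCC and 4.03% TGGCGCC.

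The inhibitory genes were then viewed within their protein families and pathway. Among the 8 SMAD genes, Smad6 and Smad7 had an E9.5 peak within 100 kb and the 6 receptor and common SMAD genes had none. At E10.5, 3 of these 6 had a peak that covered the 5′ end, Smad4, which encodes the common SMAD (best rank 667.5), Smad5 (848) and Smad9 (4035). Of the 9 genes for ubiquitin ligases of the NEDD4 family, Smurf1 and Smurf2 were the ones with an E9.5 peak. At E10.5 peaks were also found at Nedd4 (rank 200) and Nedd4l (rank 640), and none was listed at either stage for Itch, Wwp1, Wwp2, Hecw1 and Hecw2. With 2 of 8 SMAD and 2 of 9 NEDD4 family genes, the early shares were close to the 20.5% of all protein-coding genes, and the late counts of 5 and 4 stand against 52.9%. A peak over the 5′ end was found for 2 early and 5 late of the 8 SMAD genes and for 2 early and 3 late of the 9 NEDD4 family genes, compared with 2.11% and 11.3% of all protein-coding genes, and the members themselves are part of these counts.

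Of 8 other regulators of SMAD or receptor turnover, 1 had an early and 5 had a late peak, and of 12 receptor genes 2 and 9 had one. These counts stand against the same shares of 20.5% and 52.9%. At the 5′ end, 0 and 3 of the 8 turnover regulators and 2 and 4 of the 12 receptor genes were covered, compared with 2.11% and 11.3% of all protein-coding genes. Among these, a peak within the best 100 of a list was found for Bmpr2, the BMP type II receptor gene, at E9.5 (rank 15, and 108 at E10.5) and for the activin receptor gene Acvr2b at E10.5 (rank 54, with no E9.5 peak). Of 8 genes for other intracellular inhibitors and feedback regulators, 5 had an early and 8 had a late peak, and 3 and 7 were covered at the 5′ end, to be read against the same 2.11% and 11.3%. The SMAD co-repressor gene Skil stood at the top of both lists (rank 1.5, tied, and 1), Pmepa1, whose product sequesters receptor SMADs, had ranks of 4 and 3090.5, and the co-repressor gene Tgif1 ranks of 90 and 377. The members and these lists were chosen with earlier results known, and the counts are given as descriptions without a test.

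The genes whose best peaks were most similar in rank at both stages were determined among 281 overlapping pairs of best peaks, by the distance in log10 rank over the 2 lists. Closest to Smad6 (10 and 21) was the pair at Id1, a direct target gene of BMP signaling that encodes an inhibitor of helix-loop-helix factors, with ranks 11 and 19 (distance 0.06), followed by that at Dennd4b (12 and 29, distance 0.161). For Smad7 (5 and 3), the nearest was Id4 (6 and 7, distance 0.376), then Ncrna00085 (1.5 and 2, distance 0.552). Smurf2 (97 and 3068.5) was nearest to Ier5 (118 and 2893, distance 0.0889) and to the BMP-responsive homeobox gene Msx2 (121 and 2411, distance 0.142). Bambi (1158.5 and 233) was nearest to Ppp3ca (1394.5 and 242, distance 0.0822) and Jam2 (1552 and 249, distance 0.13). Smurf1 had no such pair, as its best peaks did not overlap. Several of these pairs were the best peaks of more than 1 protein-coding gene, and the gene nearest to the E9.5 peak center was named. This applied to the pairs at Id1 (5 genes), Dennd4b (10), Ncrna00085 (6), Msx2 (3) and Jam2 (4). The pairs at Id4, Ier5 and Ppp3ca belonged to 1 gene each. Likeness here rests on 2 values per gene.

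Finally, the peaks were ranked among their neighbors within 1 Mb of the 5′ end. The 5′ peak was the best of all peaks in this interval for all 5 genes at E9.5, out of 5 peaks at Smad6, 3 at Smad7, 4 at Smurf1, 1 at Smurf2 and 3 at Bambi. For Smurf2 this place was fixed, as its 5′ peak had no other early peak to be compared with. The early intervals held few peaks, and the 5′ peak of Bambi was the best of 3 at rank 1158.5. How often this place is reached by other genes with a 5′ peak was not determined. At E10.5 the 5′ peak was the best for Smad6 (of 10), Smad7 (of 15) and Bambi (of 2). Around Smurf2, 6 of the 13 peaks had a higher score than its 5′ peak. Of the 5 peaks around Smurf1 at this stage, 3 scored higher than the one at its 3′ end.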

How the data were processed

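SMAD4-3xFLAG ChIP-seq was analyzed at the level of the peak lists deposited by the authors, 1 per stage. According to their methods and processing notes, reads were aligned to mm9 with Bowtie 1.1.0 and peaks called per replicate with MACS 1.4 at a permissive threshold against the input of the same sample. MSPC then combined the replicates, and the best p-value was kept. The deposited score has no unit in the lists and was used for ranks within a list. A deeper library can give more peaks, so that list length is no measure of binding.

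Peak centers were compared with gene 5′ ends of GENCODE vM1 (mm9, coordinates 1-based) using Python 3.11.15, pandas 2.3.3, NumPy 2.4.6 and pysam 0.24.0, with plots made in Matplotlib 3.10.9. Peaks were shared when they overlapped by at least 1 bp. Sequences were searched in 300 bp around the center and in whole peaks. RefSeq promoters (GRCm38.p6) were placed on mm9 by exact match. The functions were tested on simulated data. No statistical test was made, since no replicate values were used here. Named genes were the 5 members, the genes nearest to their peaks, pathway genes with a peak among the best 100 of a list, and the 2 genes most similar in rank to each member. Relatives in the SMAD and NEDD4 families were named in addition, after their values were seen. Where several genes had the same pair of best peaks, the nearest one was named. Members and gene lists were chosen with earlier results of these data known. Alternatives concerned the distance, anchor, score limit, definition of overlap, ties, annotation and sequence window. Some sequence matches are not reported here.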

Additional observations from a re-analysis of the deposited data

How the results depend on the processing

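No paired analysis was possible because the replicates had been combined into 1 list per stage, and for the same reason no replicate could be left out. Of 104 recomputed main counts, 86 were within 1.5 times the value in the text, and 18 were not. The 86 include counts of genes with a peak over the 5′ end, which changes of distance or anchor could not alter. Of 235 further alternatives, for values per gene, the palindrome and the shares of all protein-coding genes, 52 were counted as changed, among them smaller changes of the shares. At E10.5, Smad7 had 1 peak within 20 kb and 15 within 1 Mb, and Smad6 had 1 within 50 kb and 10 within 1 Mb. At E9.5, Smad6 and Smad7 had 1 peak each with scores of 100 or more. With peaks scored 100 or more, 4 peaks per stage remained, 2 of them shared. They lay at 4 genes at E9.5 and 3 genes at E10.5, compared with 3.04% and 8.77% of protein-coding genes at this limit. With the better-scored 50% of each list there were 5 E9.5 peaks at 4 genes, compared with 12.4% of protein-coding genes. With the best E10.5 peaks, as many as at E9.5, 5 peaks at 3 genes remained, compared with 28% of protein-coding genes. The number of E10.5 peaks was 4 within 20 kb, 19 within 250 kb and 45 within 1 Mb, and that of E9.5 peaks 16 within 1 Mb. Of all protein-coding genes, 23.3%, 72% and 91.3% had an E10.5 peak within 20 kb, 250 kb and 1 Mb. An E9.5 peak within 1 Mb was found for 78.4% of them. CAGAC was found in 7 of the 9 E9.5 peaks in 500 bp and in 9 per stage in whole peaks. GGCGCC was found in 1 of the E10.5 peaks in 200 bp and in 6 per stage in whole peaks. The shares of all peaks with a match in 200 or 500 bp were not determined. The number of genes with a peak over the 5′ end, a count added after the data were seen, was 4 or 5 at E9.5 and 3 or 4 at E10.5 in all alternatives. A change of distance or anchor cannot remove a peak over the 5′ end, and the lower values came from limits on score or list length. Where a gene kept a peak, its best peak was the same in 108 of 111 alternatives. Most of these could not differ, since ties, score limits, shorter lists and shorter distances kept the best peak or left none. Wider distances and other anchors could bring in another peak. No peak was left for Smurf1 at E10.5 within 20 or 50 kb, with scores of 100 or more, in the better-scored 50% and in the list of equal length. The same held for Smurf2 at E10.5 with scores of 100 or more and in the list of equal length, and for Bambi at E9.5 with scores of 100 or more and in the better-scored 50%. The other best peaks were those of Smurf1 at E10.5, with rank 1829.5 within 250 kb and 1402 within 1 Mb, and of Smurf2 at E10.5, with rank 774 within 1 Mb. A score limit removes weak regions first, and the unknown depth of the libraries limits every statement on absent peaks.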
